A study of Mus musculus with 7 samples.

Results

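MHC class II molecules are the surface proteins with which antigen-presenting cells show peptides to CD4 T cells, and 8 genes of this pathway were followed here in sorted mouse regulatory T (Treg) cells. They are the chain genes H2-Aa, H2-Ab1 and H2-Eb1, the invariant chain gene Cd74, the peptide-exchange gene H2-DMa, the master regulator gene Ciita, the protease gene Ctss (cathepsin S), and Cst3, the gene of cystatin C, which inhibits such proteases. They were chosen by name, and all 8 were found among the 15815 genes listed. The libraries were made with SmartSeq2, which amplifies full-length cDNA without strand information, from 10 ng of total RNA each. Hpgd-deficient YFP+ Treg cells (KO, 3 libraries) were compared with WT YFP+ Treg cells (4 libraries). Both came from the mesenteric lymph nodes (mLN) of Rag-/- mice, which make no T or B cells of their own, killed 8 weeks after transfer. Every host had also been given WT naive T cells and unmarked WT Treg cells. The strain label is C57BL/6JRcc for all 7 libraries, and the line label (a floxed Hpgd allele with Foxp3-YFP-Cre, in which the Foxp3 gene drives both the reporter and the recombinase) is likewise the same for all 7, so KO and WT are told apart by the titles. Host myeloid cells remain in Rag-/- mice. Whether the libraries stem from separate hosts is not stated in the labels, and p-values therefore reflect only how far these libraries differ from one another, which may be partly technical.

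In an antigen-presenting cell, class II alpha and beta chains assemble in the endoplasmic reticulum around the invariant chain. In endosomes cathepsin S trims the invariant chain, H2-M (the product of H2-DMa with H2-DMb1 or H2-DMb2) removes the last fragment so that peptide can bind, and H2-O restrains H2-M. Ciita protein binds no DNA itself and acts through factors already sitting on the X and Y boxes of class II promoters. Dendritic cells, macrophages and B cells express these genes strongly. Human T cells switch them on after activation, whereas mouse T cells are described as making little or none. C57BL/6 mice also carry a defective H2-Ea gene, so the product of H2-Eb1 has no E alpha partner in this strain.

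The boxes through which Ciita acts are shown first because they are the known entry point of class II regulation. RefSeq promoters for GRCm38.p6 were used, from 250 bases before to 50 bases after the start of transcription. Of the 8 genes, 5 were searched: H2-Aa, H2-Eb1, H2-DMa, Ctss and Cst3. The promoters of Cd74, H2-Ab1 and Ciita were not searched, so whether they hold these letters was not tested. The letters TGATTGG of the Y box, where NF-Y binds, were searched on both strands, together with the letters GCAAC from the core of the X box, where the RFX complex binds. H2-Aa and H2-Eb1 held GCAAC followed by TGATTGG with 20 to 32 bases between them, and 3 class II genes outside the 8 did as well. Each stretch is written on its gene's own strand, 5′ to 3′, with GCAAC and TGATTGG in capitals.
H2-Aa (GRCm38.p6, chr17:34287864-34287908, minus strand): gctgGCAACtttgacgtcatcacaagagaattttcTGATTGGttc
H2-Eb1 (GRCm38.p6, chr17:34305772-34305815, plus strand): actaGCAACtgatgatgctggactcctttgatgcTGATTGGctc
H2-Eb2 (GRCm38.p6, chr17:34325539-34325582, plus strand): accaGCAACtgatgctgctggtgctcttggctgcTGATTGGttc
H2-Ob (GRCm38.p6, chr17:34238814-34238855, plus strand): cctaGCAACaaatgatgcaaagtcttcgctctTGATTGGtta
H2-Oa (GRCm38.p6, chr17:34092299-34092343, plus strand): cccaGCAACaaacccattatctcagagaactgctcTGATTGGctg

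The spacing between the capitals was 26 bases in H2-Aa and H2-Oa, 25 in H2-Eb1 and H2-Eb2, and 23 in H2-Ob. TGATTGG began 50 bases before the start in H2-Aa, 61 in H2-Eb1, 102 in H2-Eb2, 59 in H2-Ob and 45 in H2-Oa. Of 8 class II H2 genes with an entry, 7 held TGATTGG, the exception being H2-DMa in its windows, and 5 held the pair. The windows of H2-DMa begin at 34122582 and 34125268 on chromosome 17, inside its annotated span, and other starts of it were not searched. Among all 32851 promoters, 7.82% held TGATTGG on either strand, 35.2% held GCAAC and 0.11% held the pair. The class II matches are on the gene's own strand, the only strand on which their pair was sought. On that strand the shares were 4.01% for TGATTGG and 0.0548% for the pair. Of 16 searched genes that are not H2 genes, Ctss and Cst3 among them, 2 held TGATTGG (Rfx5 and Nfyc). Among the 5 followed genes that were searched, the matches were thus in H2-Aa and H2-Eb1. These matches are letters in a window and not measured binding.

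Levels are given as normalized counts, the deposited values less the offset of 1 they contain. Reads per library ran from 4135733 (KO 3) to 10622507 (WT 4) and genes with at least 1 read from 13557 (KO 3) to 15201 (KO 2), which makes low levels least certain in KO 3. Hpgd itself had 0.759, 2.42 and 5.52 in KO 1 to 3, against 18.7, 9.96, 10.2 and 13.4 in WT 1 to 4, without overlap. Of 16 T cell and Treg marker genes all 16 passed the filter on low values, with a summed level of 77092 to 81102 in KO and 73663 to 86645 in WT. Among them Foxp3, the factor that defines Treg cells, averaged 123.7 ± 17.5 in KO and 106.5 ± 42.7 in WT (SD, n = 3 and 4). Ikzf2 (Helios) averaged 10860 ± 2609 in KO and 9687 ± 3721 in WT, and Ctla4, an inhibitory receptor gene, 5597 ± 639 in KO and 5156 ± 1365 in WT.

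Transcripts of the chain genes were clearly detected in the libraries of sorted Treg cells, and varied more from library to library than between genotypes. H2-Ab1, the A beta chain gene (mm10, chromosome 17, 34257689 to 34269419, plus strand, ENSMUSG00000073421.6), had 1228, 523 and 706 normalized counts in KO 1 to 3, against 949, 1420.5, 160.6 and 868 in WT 1 to 4. WT 2 was highest and WT 3 lowest, so that the KO libraries all lay inside the range of the WT libraries. H2-Aa, which encodes the A alpha chain that pairs with it (chromosome 17, 34282744 to 34287823, minus strand, ENSMUSG00000036594.15), had 615, 326 and 515 in KO 1 to 3, against 532, 778, 112 and 425 in WT 1 to 4. Again WT 2 and WT 3 were the extremes and the KO libraries lay between them. H2-Eb1, the E beta chain gene (chromosome 17, 34305867 to 34316674, plus strand, ENSMUSG00000060586.11), had 656, 473 and 364 in KO 1 to 3, against 634, 1212, 202 and 413 in WT 1 to 4. WT 2 was again at the top and WT 3 at the bottom, with the KO libraries between them. In the annotation H2-Eb1 overlaps the gene Gm20513, and reads from shared positions cannot be told apart without strand information.

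Cd74, which encodes the invariant chain that escorts class II (chromosome 18, 60803848 to 60812652, plus strand, ENSMUSG00000024610.15), was far above the chain genes. It had 4508, 3383 and 2679 normalized counts in KO 1 to 3, against 3440, 6805, 1646 and 4120 in WT 1 to 4. H2-DMa, a chain of the peptide-exchange molecule (chromosome 17, 34119541 to 34139101, plus strand, ENSMUSG00000037649.10), had 1309.9, 1243 and 949 in KO 1 to 3, against 1118, 1824, 715 and 971 in WT 1 to 4. Both genes were highest in WT 2 and lowest in WT 3. The annotated span of H2-DMa overlaps Brd2 and several unnamed or predicted genes, so its count is uncertain where exons are shared. Per library, H2-DMa stood 13.4 to 79 times above its partner H2-DMb1, a ratio of normalized counts that does not correct for transcript length. H2-DMb1 had 97.9, 52.5 and 12.9 in KO 1 to 3, against 79.2, 130.4, 9.05 and 52.7 in WT 1 to 4, and H2-DMb2, a close copy of it between which reads can be split, had 113.8, 82.4 and 66.2 in KO 1 to 3, against 99.0, 151.2, 44.1 and 58.3 in WT 1 to 4.

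Ctss, the cathepsin that trims the invariant chain in dendritic cells, macrophages and B cells (chromosome 3, 95526786 to 95556403, plus strand, ENSMUSG00000038642.10), was the most abundant and the steadiest of the 8. It had 5397, 5803 and 4818 normalized counts in KO 1 to 3, against 4830.2, 6176, 4179 and 5395 in WT 1 to 4. Cst3, whose product inhibits cysteine proteases (chromosome 2, 148871722 to 148875692, minus strand, ENSMUSG00000027447.6), had 1479, 1167 and 1193 in KO 1 to 3, against 1014, 1987, 929 and 1183 in WT 1 to 4. For both genes the KO libraries lay within the WT range, between WT 3 and WT 2.

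Ciita, the regulator on which class II transcription depends (chromosome 16, 10480059 to 10528418, plus strand, ENSMUSG00000022504.10), was the scarcest of the 8 and did not follow the others. It had 63.7, 21.8 and 3.68 normalized counts in KO 1 to 3, against 45.1, 3.62, 24.9 and 5.62 in WT 1 to 4. These rest on 84, 27 and 2 recovered reads in KO 1 to 3 and 41, 4, 22 and 8 in WT 1 to 4, 188 reads in all. WT 2, the library with the most of the other 7 transcripts, had the lowest Ciita level, and WT 3, the library with the least of them, had the third highest. The KO libraries spanned nearly the whole range of both groups.

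**Figure D1:**
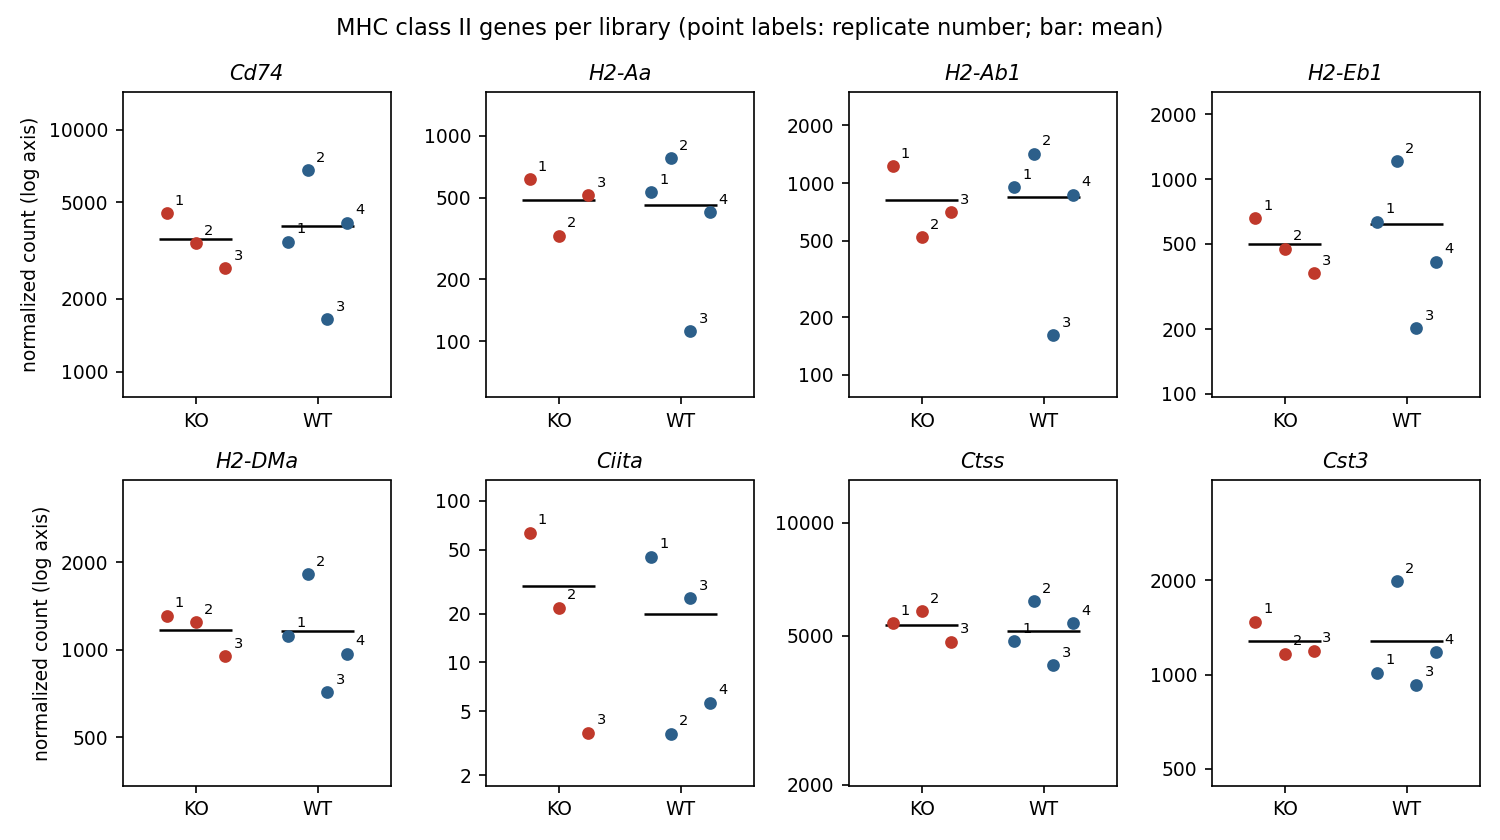
Normalized count of each of the 8 genes in the 3 KO and 4 WT libraries, on log axes that differ between panels; points carry the replicate number and bars mark group means. In every panel except Ciita WT 2 is the highest point and WT 3 the lowest, and the KO points lie between them.

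Per kilobase of the principal transcript, which is what allows genes to be compared with each other, the mean level over 7 libraries fell in the order Ctss, Cd74, Cst3, H2-DMa, H2-Ab1, H2-Aa, H2-Eb1 and Ciita. Ctss averaged 3859 ± 496 normalized counts per kb, Cd74 2693 ± 1152, Cst3 1487 ± 415, H2-DMa 700.4 ± 213, H2-Ab1 690.1 ± 350.1, H2-Aa 418 ± 189, H2-Eb1 338.5 ± 195 and Ciita 4.01 ± 3.84 (SD, n = 7). Cd74 exceeded Cst3, and Cst3 exceeded H2-DMa, in 7 of 7 libraries, and Ctss exceeded Cd74 in 6 of 7. H2-DMa exceeded H2-Ab1 in 2 of 7 libraries only, although its mean was higher, so these neighbours did not differ beyond their spread. H2-Aa and H2-Eb1 overlapped likewise, with H2-Aa higher in 5 of 7. H2-Eb1 exceeded Ciita in 7 of 7. The A chain genes kept a narrow ratio to each other, with 1.37 to 2.04 H2-Ab1 counts per H2-Aa count. Cd74 over H2-Ab1 was 3.67, 6.47 and 3.79 in KO 1 to 3, against 3.62, 4.79, 10.25 and 4.75 in WT 1 to 4, so in WT 3 the chain transcript stood further below its level in the other libraries than the invariant chain transcript did.

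The spread over libraries set the chain genes apart from Ctss. The highest library held 8.85 times the lowest for H2-Ab1, 6.95 times for H2-Aa, 5.99 times for H2-Eb1, 4.14 times for Cd74, 2.55 times for H2-DMa, 2.14 times for Cst3 and 1.48 times for Ctss. For Ciita the ratio was 17.6, at read counts low enough for sampling to widen it. Set beside tested genes whose mean lay within a factor of 2, the SD of log2 level over 7 libraries was larger for H2-Ab1 (1.05) than for 99.7% of 3078 genes. It was larger for H2-Aa (0.91) than for 98.8% of 4113 genes, for H2-Eb1 (0.80) than for 98.1% of 3836, and for Cd74 (0.64) than for 95.5% of 582. For Ctss (0.19) the figure was 19.6% of 368 genes. Being lowest in WT 3 and highest in WT 2, as 7 of the 8 genes were, was the pattern of 10.3% of tested genes, so WT 2 and WT 3 stand apart well beyond class II.

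Across the 7 libraries the class II genes other than Ciita varied together. H2-Aa and H2-Ab1 were closest, with r = 0.984 and rho = 0.964 on log2(normalized count + 1) (exact two-sided permutation p = 0.00119 and 0.00278, adjusted over 28 pairs 0.0333 and 0.0389), and 0.0255% of tested genes came as near to H2-Aa. H2-Eb1 and H2-DMa came next, with r = 0.965 and rho = 0.964 (exact permutation p = 0.00337 and 0.00278, adjusted 0.0333 and 0.0389). The 21 pairs without Ciita had r between 0.695 and 0.984 with a median of 0.865, and the 7 pairs with Ciita had r between -0.37 and -0.0988. In all, 12 of 28 pairs passed an adjusted exact permutation p of 0.05 for r and 4 for rho. For the 12, between 0.0255% and 4.90% (Cd74 and H2-Aa) of tested genes reached the pair's r with its first gene. For the pairs without Ciita that did not pass, this share ran from 4.97% (Ctss and Cst3) to 10.6% (H2-Aa and Ctss). How many of all tested genes would pass such a p was not counted. All genes were measured in the same libraries and share each library's scaling factor. In bulk RNA, fewer cells of a type and less RNA per cell cannot be told apart.

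Cd74, the gene around which the design set the correlations, was tested against the other 7 genes and 10 marker sums of other cell types, 17 relations in all. With H2-Ab1 it had r = 0.907 and rho = 0.929 (exact permutation p = 0.00357 and 0.00675, adjusted 0.0320 and 0.101). With H2-Eb1 the values were r = 0.938 and rho = 0.893 (exact permutation p = 0.00714 and 0.0123, adjusted 0.0357 and 0.101), and with H2-DMa r = 0.919 and rho = 0.857 (0.0117 and 0.0238, adjusted 0.0357 and 0.101). H2-Aa followed with r = 0.861 and rho = 0.821 (exact permutation p = 0.0137 and 0.0341, adjusted 0.0357 and 0.116). Ctss had r = 0.897 and rho = 0.786 (exact permutation p = 0.00853 and 0.0480, adjusted 0.0357 and 0.136), and Cst3 r = 0.869 and rho = 0.75 (0.0147 and 0.0663, adjusted 0.0357 and 0.141). Ciita had r = -0.23 and rho = -0.11 (exact permutation p = 0.621 and 0.840, adjusted 0.754 and 0.952). None of the 17 rank correlations passed after adjustment. The 6 calls for r depended on single libraries. Their adjusted p was 0.146 to 0.202 without WT 2, 0.151 to 0.247 without WT 3 and 0.0573 to 0.0708 without KO 1, while leaving out KO 2, KO 3, WT 1 or WT 4 ended 1, 4, 1 and 3 of them. Subtracting each genotype's mean left r between 0.876 and 0.938 for the 6 genes other than Ciita. WT 2 and WT 3 were farthest from the median of Cd74 and hold its extremes. Without both, r dropped to 0.635 for H2-Ab1, 0.580 for H2-Eb1, 0.502 for H2-DMa, 0.507 for Ctss, 0.516 for Cst3 and 0.189 for H2-Aa. Without WT 2 alone r was 0.761 to 0.922 for these 6 genes, and without WT 3 alone 0.641 to 0.873. For H2-Ab1 it was 0.922 without WT 2, above the 0.907 of all 7 libraries, although its adjusted exact permutation p rose to 0.146. Among all tested genes 8.82% had r of at least 0.8 with Cd74.

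Markers of other cell types were also detected in the sorted cells. Of their 10 summed levels, 2 passed for r with Cd74 (dendritic cells, and CD8 T and NK cells) and 0 for rho. Of 26 macrophage and monocyte markers 25 were in the table and 22 passed the filter, with a summed level of 3046 to 5360 in KO and 2769 to 5152 in WT. Ccr2, Lyz2 and Apoe made up 62.1% of that sum. Lyz2, a lysozyme gene of macrophages and granulocytes, had 1274, 482 and 660.1 normalized counts in KO 1 to 3, against 1090.1, 1043, 47.5 and 962 in WT 1 to 4. Apoe, the apolipoprotein E gene, had 455, 399.9 and 270.3 in KO 1 to 3, against 702, 951.5, 66.7 and 540.5 in WT 1 to 4, and C1qb, a complement gene of tissue macrophages, had 124, 99.4 and 184 in KO 1 to 3, against 172, 254, 10.2 and 158 in WT 1 to 4. All 3 genes were lowest in WT 3 by a wide margin. Counted without regard to margin, 14 of the 25 listed were lowest there, against 19% of all tested genes. Cd14 and Fcgr1, a lipopolysaccharide co-receptor and an IgG receptor of monocytes and macrophages, were low, with Cd14 between 0 and 8.15 and Fcgr1 between 0 and 16.6 over the libraries. No listed marker found in the table was at 0 in all 7 libraries, and markers without a row were not analysed here.

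Among the macrophage genes, H2-Ab1 had its highest r with Lyz2 and its highest rho with Csf1r. This set of 22 relations was chosen after the levels had been seen. H2-Ab1 had r = 0.971 and rho = 0.893 with Lyz2 (exact permutation p = 0.00159 and 0.0123, adjusted over 22 relations 0.0349 and 0.105). With C1qa it had r = 0.947 and rho = 0.786 (exact permutation p = 0.00556 and 0.0480, adjusted 0.0368 and 0.132), and with Apoe r = 0.934 and rho = 0.857 (0.00873 and 0.0238, adjusted 0.0368 and 0.105). Csf1r, the receptor gene on which macrophages depend, had r = 0.679 and rho = 0.929 (exact permutation p = 0.102 and 0.00675, adjusted 0.173 and 0.105). In total 10 of 22 relations passed for r and 0 for rho by exact permutation, where the smallest adjusted value was 0.105. Without KO 2 and WT 3, the libraries farthest from the median of H2-Ab1, r was 0.878 for Csf1r, 0.771 for Lyz2, 0.741 for Apoe and 0.536 for C1qa, with no p computed over the remaining 5. Ccr2, the most abundant gene of the list, ran the other way with r = -0.43 and rho = -0.46 (exact permutation p = 0.320 and 0.302, adjusted 0.386 and 0.416). H2-Ab1 over Lyz2 was 0.964, 1.08 and 1.07 in KO 1 to 3, against 0.871, 1.36, 3.38 and 0.903 in WT 1 to 4. Lyz2 was thus reduced further than H2-Ab1 in WT 3. Of the macrophage genes 9 of 22 had r of at least 0.8 with H2-Ab1, against 5% of all tested genes, 4 of 24 class I pathway genes and 1 of 16 T cell genes. The same counts for Cd74 were 8 of 22 macrophage genes, 14 of 24 class I genes and 7 of 16 T cell genes, against 8.82% of all tested genes. For H2-Aa 9 of 22 macrophage genes reached this r, against 4.97% of all tested genes. The share was near the background for the other members, with 3 of 22 (13.6%) against 9.6% for H2-Eb1, 2 of 22 (9.09%) against 8.75% for H2-DMa, 1 of 22 (4.55%) against 5.15% for Ctss and 6.95% for Cst3, and 0 of 22 against 1.32% for Ciita. The part of macrophage RNA in the class II levels was not tested.

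**Figure D2:**
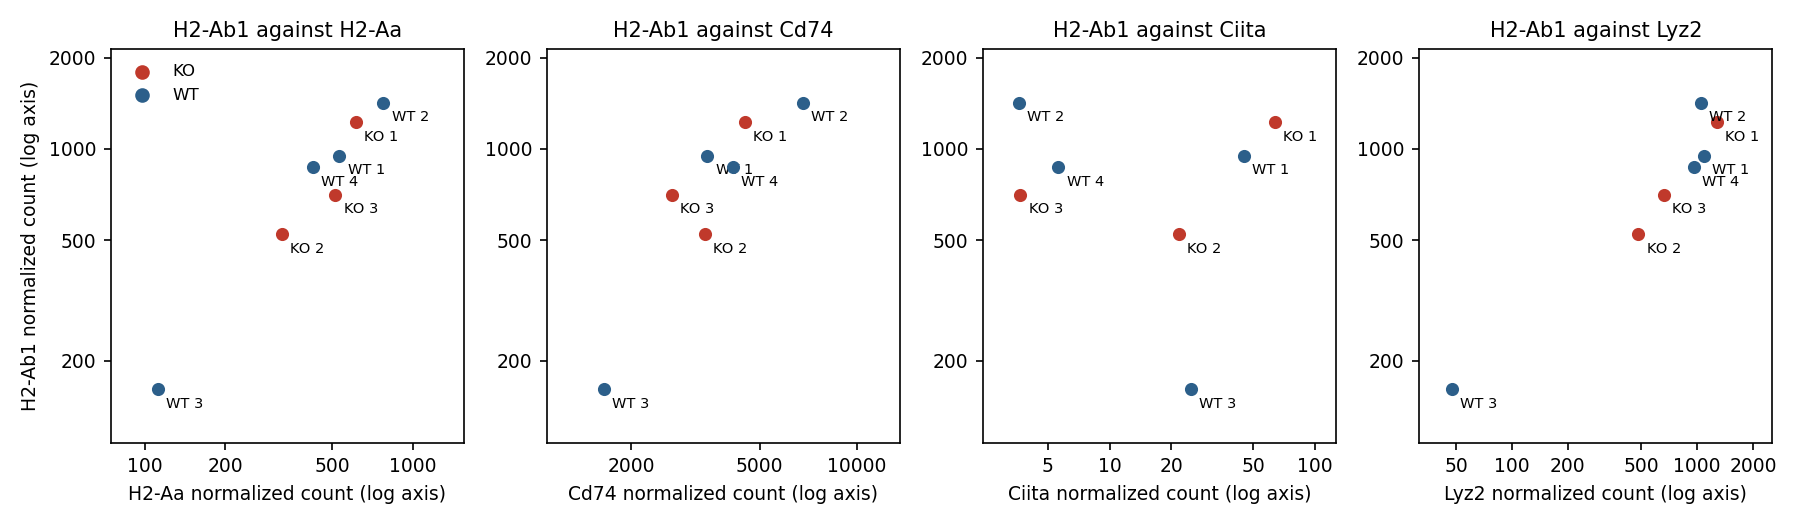
H2-Ab1 normalized count against H2-Aa, Cd74, Ciita and Lyz2 in the 7 libraries, with KO in red and WT in blue on log axes. H2-Ab1 runs along H2-Aa (r = 0.984) and Lyz2 (r = 0.971) with WT 3 far below the other libraries, and shows no such line with Ciita.

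B cell markers were few. The table listed 11 of 13, and 5 passed the filter, with a summed level of 486 to 625 in KO and 543 to 929 in WT, of which Cd79b, Bank1 and Cr2 made up 90.2%. Cd79b, a chain of the B cell receptor, had 398, 415 and 316 normalized counts in KO 1 to 3, against 421, 737, 306.5 and 517 in WT 1 to 4. Its receptor partner gene Cd79a had 8.35, 12.9 and 5.52 in KO 1 to 3, against 5.50, 6.34, 5.65 and 2.11 in WT 1 to 4, and Ms4a1, which encodes CD20, lay between 4.85 and 8.80 in all 7 libraries. Cd22, a B cell inhibitory receptor gene, had 6.07, 12.9 and 3.68 in KO 1 to 3, against 5.50, 63.4, 17.0 and 2.81 in WT 1 to 4. Cd79b and Cd22 were thus highest in WT 2, as the class II genes other than Ciita were, while Cd79a and Ms4a1 were not. The part of B cell RNA in the class II levels was not tested. Against Cd74 the B cell sum had r = 0.625 and rho = 0.429 (exact permutation p = 0.132 and 0.354, adjusted 0.217 and 0.546).

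Of 17 dendritic cell markers 16 were in the table and 10 passed, but Itgae, Cd83 and Zbtb46 made up 97.9% of a summed level of 11166 to 15190 in KO and 11306 to 18107 in WT. Itgae, which encodes CD103, and Cd83 are expressed by Treg cells as well, so their levels are no measure of dendritic cells. The other genes were lower, and did not share one order of libraries. Ccl22, a chemokine gene of mature dendritic cells, had 67.5, 19.4 and 68.0 in KO 1 to 3, against 52.8, 88.7, 5.65 and 17.6 in WT 1 to 4, and so was highest in WT 2 and lowest in WT 3. Fscn1, an actin-bundling gene of such cells, was also highest in WT 2 (71.5), with 12.4 in WT 3, and Cd209a, a lectin gene below the filter, had 30.8 in WT 2 and 0 in WT 3. Xcr1, a chemokine receptor gene of cross-presenting dendritic cells, had 20.49, 43.6 and 68.0 in KO 1 to 3, against 18.7, 10.9, 36.2 and 14.1 in WT 1 to 4, and was lowest in WT 2, where class II was highest. Clec9a, a dendritic cell lectin gene, reached at most 6.34 and was at 0 in KO 3, WT 1 and WT 3. Flt3 lay between 0 and 17.8, and Itgax between 0 and 24.6. Of the 10 dendritic cell genes tested, r of at least 0.8 was reached by 1 with Cd74, 2 with H2-Aa, 1 with H2-Ab1 and 3 with H2-Eb1. Among all tested genes the shares in that order were 8.82%, 4.97%, 5% and 9.6%. The sum had r = 0.836 and rho = 0.75 with Cd74 (exact permutation p = 0.0210 and 0.0663, adjusted 0.0447 and 0.141), and r = 0.601 without WT 2 and WT 3.

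Among the remaining lists, the CD8 T and NK cell sum had r = 0.920 and rho = 0.857 with Cd74 (exact permutation p = 0.00377 and 0.0238, adjusted 0.0320 and 0.101), and r = 0.766 without WT 2 and WT 3. Nkg7, Gzma and Cd8b1 made up 95.9% of it, the first of which is also found in CD4 T cells. The innate lymphoid sum ran against Cd74 (r = -0.75, rho = -0.71; exact permutation p = 0.0486 and 0.0881, adjusted 0.0918 and 0.166). Its leading genes Nrp1, Il1rl1 and Klrg1 are also expressed by Treg cells. The macrophage sum, led by Ccr2, had r = 0.630 and rho = 0.357 (exact permutation p = 0.141 and 0.444, adjusted 0.217 and 0.630). For the plasma cell, neutrophil, erythroid, stromal and mast cell sums r lay between -0.25 and 0.0754, with adjusted exact permutation p of 0.754 to 0.966. These lists were led by Jchain, Sdc1 and Derl3 (plasma cells), S100a8, Mmp9 and Cxcr2 (neutrophils), Hba-a2, Hbb-b1 and Hba-a1 (erythroid cells), Epcam, Pecam1 and Col1a1 (stromal, endothelial and epithelial cells) and Cpa3, Ms4a2 and Mcpt8 (mast cells and basophils). The erythroid sum separated the groups, at 86.5 to 254 in KO and 651 to 2814 in WT. Of all tested genes taken singly, 3.65% had groups that did not overlap. Among the 5 erythroid genes tested, 4 had all KO libraries below the WT libraries and 1 had them all above. With Cd74 the erythroid sum had r = -0.0199 and rho = 0.0357 (exact permutation p = 0.966 and 0.963), and r ran from -0.66 to 0.541 when 1 library was left out. The share of these cells in the class II levels was not tested.

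**Figure D3:**
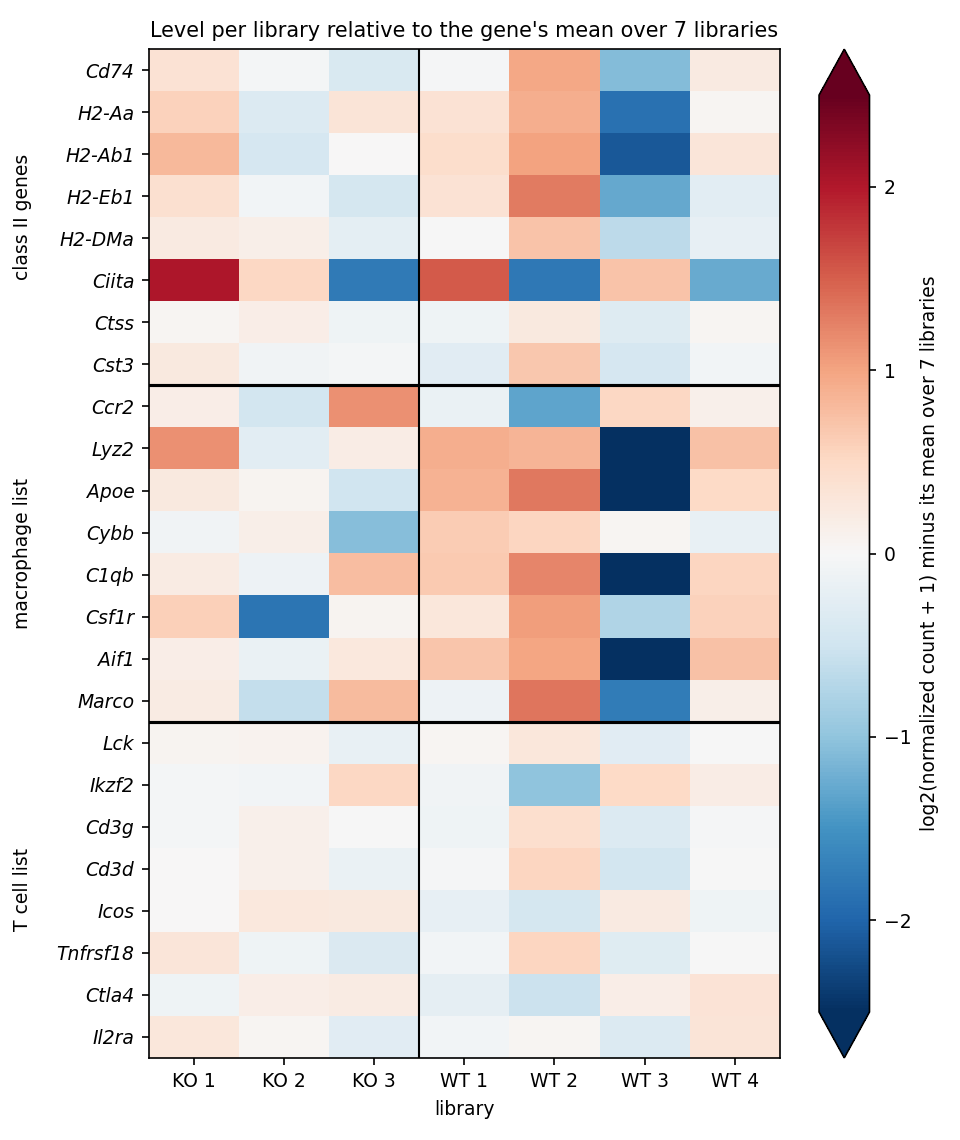
Level of each gene in each library as log2(normalized count + 1) minus the gene's mean over 7 libraries, for the 8 class II genes and the 8 most abundant genes of the macrophage and T cell lists, with KO libraries left of the vertical line. Colours end at 2.5 in either direction. The column of WT 3 is blue for 7 of 8 class II genes and darkest for Lyz2, Apoe, C1qb and Aif1, while most T cell genes stay pale.

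The genes whose level tracked Cd74 most closely over the 7 libraries were not class II genes. By r on the log2 scale the 10 nearest named genes outside the 8 were Ly6a (0.994), Ech1, Anxa5, Mcat, Rnaseh2a, Pafah1b3, Pdcd1lg2, Puf60, Fam110a and Cyb561d2 (0.982). Ly6a, the gene of the surface protein Sca-1, had 6913, 5052 and 4604 normalized counts in KO 1 to 3, against 5631, 9038, 3166 and 6111 in WT 1 to 4. Pdcd1lg2, which encodes the PD-1 ligand PD-L2, had 359, 291.6 and 248 in KO 1 to 3, against 299.2, 401, 204.7 and 342 in WT 1 to 4. For the mean of the standardised levels of Cd74, H2-Aa, H2-Ab1 and H2-Eb1 the 5 nearest were Pgk1 (0.990), Cyb561d2, Atp6v1g1, the class I gene H2-T22 and Uba1 (0.984). These genes were picked for their likeness among 11787, so no p is given for them.

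For none of the 8 class II genes was the difference between KO and WT larger than the spread between libraries. At an adjusted limma p of 0.05, 0 of the 8 were called, and so were 0 of 11787 genes tested (0%), among which the smallest value was 0.189. With voom on the recovered reads 0 genes were called as well, with 184 at an unadjusted p of 0.05. All 8 passed the filter of a mean normalized count of at least 10. At an unadjusted p of 0.05, 0 of 8 passed, against 1.79% of all tested genes (211), and 0 of 8 had groups that did not overlap, against 3.65% (KO libraries all above in 1.71%, all below in 1.93%). The estimate was higher in KO for 6 of 8 genes, against 51.8% of all tested genes. The median estimate on the log2 scale was 0.07 for the 8 and 0.01 over all tested genes.

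H2-Aa averaged 485 ± 147 normalized counts in KO and 462 ± 276 in WT (log2 fold change 0.32, SE 0.51; 95% interval -0.78 to 1.42; unadjusted p = 0.538 in limma). H2-Ab1 averaged 819 ± 366 in KO and 849.6 ± 519.9 in WT (0.22, SE 0.57; -1.02 to 1.46; limma unadjusted p = 0.706), a sign that differs from that of the means because fold changes compare means of log2 values. H2-Eb1 averaged 498 ± 148 in KO and 615 ± 435 in WT (-0.06, SE 0.46; -1.05 to 0.94; limma unadjusted p = 0.902). The interval reaches past a doubling for H2-Aa, past a halving for H2-Eb1 and past both for H2-Ab1. Differences of that size in those directions are therefore not excluded here. For Cd74 the level was 3523 ± 922 in KO and 4003 ± 2140 in WT (log2 fold change -0.04, SE 0.37; -0.85 to 0.76; limma unadjusted p = 0.909). H2-DMa was at 1167 ± 192 in KO and 1157 ± 475 in WT (0.08, SE 0.28; -0.52 to 0.69; limma unadjusted p = 0.768). Ctss had the narrowest interval, with 5339 ± 495 in KO and 5145 ± 848 in WT (0.06, SE 0.20; -0.37 to 0.50; limma unadjusted p = 0.755). Cst3 was at 1280 ± 173 in KO and 1278 ± 484 in WT (0.06, SE 0.25; -0.49 to 0.61; limma unadjusted p = 0.814). Ciita had the widest, with 29.8 ± 30.8 in KO and 19.8 ± 19.4 in WT (0.46, SE 1.04; -1.79 to 2.71; limma unadjusted p = 0.664). The adjusted limma p was 0.9996 for each of the 8, and SDs are over 3 KO and 4 WT libraries.

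Leaving out 1 library turned the sign of every one of these 8 estimates, none of which was called. Without WT 3 the log2 fold change was -0.26 for H2-Aa, -0.46 for H2-Ab1, -0.12 for H2-DMa, -0.03 for Ctss and -0.07 for Cst3. Without WT 2 it was 0.27 for Cd74, 0.36 for H2-Eb1 and -0.06 for Ciita. Without KO 1 it was -0.42 for Ciita, -0.12 for H2-Ab1, -0.05 for Cst3 and -0.0059 for H2-DMa. Cd74 and H2-Eb1 also turned without KO 3 (0.14 and 0.15), Cd74 without WT 4 (0.03), and H2-Eb1 (0.05) and Cst3 (-0.03) without WT 1.

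**Figure D4:**
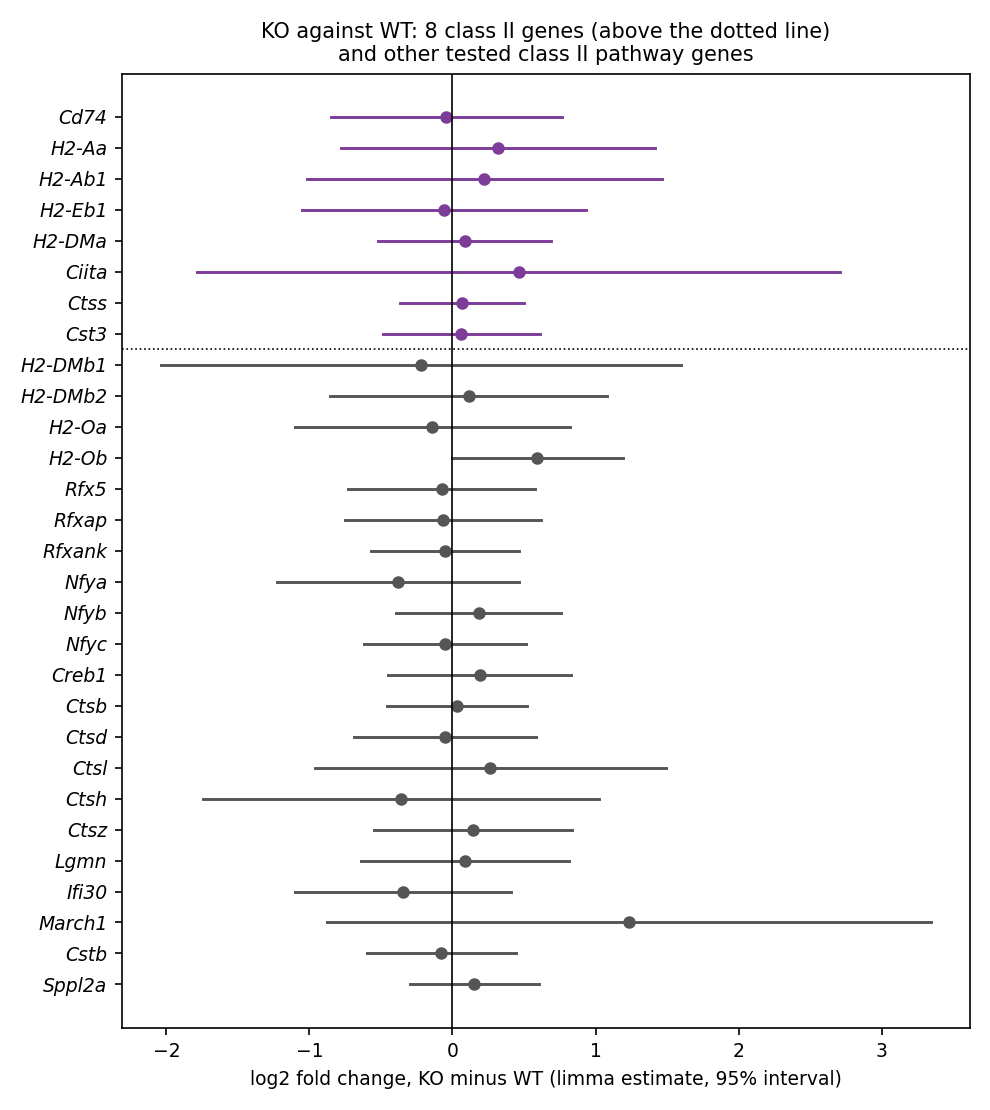
Log2 fold change of KO minus WT with its 95% interval from limma, for the 8 class II genes (purple, above the dotted line) and 21 other tested genes of the pathway (grey). Every interval includes 0, narrowest for Ctss and widest for Ciita among the 8; that of H2-Ob begins just below 0.

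The other genes of the pathway gave 0 calls as well. Of 27 names listed, 23 were in the table and 21 passed the filter, of which 10 had a higher and 11 a lower estimate in KO (median -0.05 on the log2 scale). The nearest to a difference was H2-Ob, the beta chain of H2-O, which restrains H2-M. It had 292, 439 and 309 normalized counts in KO 1 to 3, against 281, 286, 171 and 189 in WT 1 to 4. The KO libraries all lay above the WT libraries, as they did for 1.71% of tested genes, and the log2 fold change was 0.59 (SE 0.28; -0.00163 to 1.19 at 95%; unadjusted p = 0.0505 and adjusted p = 0.9996 in limma). Its partner H2-Oa had 78.9, 116.3 and 71.7 in KO 1 to 3, against 86.9, 221.8, 69.0 and 64.0 in WT 1 to 4, with overlapping groups and a log2 fold change of -0.14 (SE 0.44). H2-Eb2, a second E beta gene, fell below the filter at 0 to 14.1, and so did March8 at 0.703 to 18.1. March1, a ubiquitin ligase gene whose product takes class II off the cell surface, had 14.4, 8.89 and 57.0 in KO 1 to 3, against 5.50, 19.0, 18.1 and 1.41 in WT 1 to 4.

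The factors that bind the X and Y boxes were present in every library. The RFX genes averaged 202 ± 53.7 in KO and 215 ± 55.8 in WT for Rfx5, 98.5 ± 10.4 in KO and 104 ± 20.7 in WT for Rfxap, and 224 ± 29.6 in KO and 231 ± 21.0 in WT for Rfxank (SD, n = 3 and 4). The NF-Y genes averaged 52.0 ± 14.4 in KO and 66.9 ± 10.6 in WT for Nfya, 617 ± 259 in KO and 520.2 ± 84.6 in WT for Nfyb, and 359 ± 50.5 in KO and 381 ± 106 in WT for Nfyc. Creb1, whose product also binds class II promoters, averaged 1193 ± 347 in KO and 1076 ± 400.4 in WT. Their log2 fold changes ran from -0.38 (Nfya) to 0.19 (Creb1), all with intervals that included 0. The endosomal enzymes were more varied in level. Ctsb, a cysteine cathepsin gene, averaged 4152 ± 573 in KO and 4134 ± 1128 in WT, and Ctsd, an aspartic cathepsin gene, 2069 ± 629.7 in KO and 2175 ± 848 in WT. Ctsz averaged 965 ± 276 in KO and 912 ± 409.7 in WT, while Ctsl reached at most 50.7 and Ctsh at most 132 in any library. Lgmn, an asparagine-specific protease gene, averaged 228 ± 34.7 in KO and 230.7 ± 112 in WT. Ifi30, the gene of a thiol reductase that opens disulfide bonds of antigens, averaged 133 ± 12.1 in KO and 182 ± 90.3 in WT, and Sppl2a, whose product cuts the last membrane piece of the invariant chain, 769 ± 124 in KO and 692 ± 119 in WT. Cstb, a cytosolic cathepsin inhibitor gene, averaged 508 ± 39.7 in KO and 551 ± 162 in WT.

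Class I and interferon genes were set beside them as the nearest relatives in the cell. Of 24 class I pathway genes all 24 passed the filter, 0 were called, and in KO the estimate was higher for 4 and lower for 20 (median -0.10 on the log2 scale). The smallest unadjusted p belonged to Pdia3, an endoplasmic reticulum oxidoreductase gene (9921 ± 1579 in KO and 8234 ± 1481 in WT; log2 fold change 0.28, SE 0.22), followed by Psme1 (-0.20, SE 0.22), Canx (0.17, SE 0.22) and Tap2 (-0.19, SE 0.27). Of 10 genes that link interferon gamma to Ciita, 0 were called, with 5 estimates on either side of 0 and a median of 0.03. Socs1, a feedback inhibitor of this signal, averaged 1128 ± 282 in KO and 1412 ± 452 in WT (log2 fold change -0.30, SE 0.25). Jak2 followed with a log2 fold change of 0.22 (SE 0.23), then Jak1 with 0.13 (SE 0.18) and Irf1, a factor that switches on Ciita, with 0.12 (SE 0.20).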

How the data were processed

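RNA-seq of 7 libraries was analysed from the deposited table of normalized expression signal per gene. Reads were demultiplexed with bcl2fastq2 2.20, per the labels' protocols. Tools named in the submitters' processing notes, without role or order, are DESeq2, R 3.3.1, Partek 6.6, kallisto 0.44 and CASAVA 1.8, and the build named is mm10. In every library 100% of the deposited signal values less 1 were whole multiples of 1 step (within 0.01 of a read). Reads were recovered from this step and, where kallisto made them, may be rounded estimates. Amplified reads without molecular identifiers are not independent molecules. The sum of reads per library is the depth given in the results.

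KO was compared with WT by a linear model of log2 values (normalized count plus 1) in limma 3.58.1 (R 4.3.3), with a trended prior and no covariate. Genes needed a mean normalized count of at least 10 (11787 of 15815), and p-values were adjusted over all of them by Benjamini-Hochberg. The deposited values are not counts, so count models were left out, and voom on the recovered reads was an alternative. Correlations used exact permutation over 5040 pairings. Lengths are those of the principal transcript in GENCODE M21 (GRCm38, the assembly of mm10), and promoters are from RefSeq. Library pairs were checked for duplicates, and the smallest chi-square per degree of freedom was 12. The limma step was also run on simulated data, with 1 spread setting for all genes and no outlying library. That setting differs from these libraries, so it cannot show how many real differences were missed here.

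The 8 genes and all lists were chosen with earlier results of these data known. Named are the 8 genes, Hpgd, Foxp3, Ikzf2, Ctla4, the pathway list, the 3 most abundant markers of each other cell type, up to 4 class I and interferon genes by smallest p, and the nearest genes by r. Other markers were named after their values had been seen. Predicted genes were not named as neighbours. Alternatives were pseudocounts, scalings, filters, the prior, the replicate number as a block, and left-out libraries.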

Additional observations from a re-analysis of the deposited data

Results flagged for a closer look

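Among 31 genes of the pathway checked for a library far from the other 3 WT libraries, 3 stood out, where chance gives about 1 in 20. H2-Oa was at 221.8 normalized counts in WT 2, with a gap to the next WT library of 0.855 of the group's range. Ctsb was at 5807 in WT 2 (0.849 of the range), and Sppl2a at 869.4 in WT 4 (0.849). The 8 class II genes themselves gave no such value.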

How the results depend on the processing

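Under the other pseudocounts (0.5, 5 and 10), scalings, filters and prior and under voom, 0 genes were called and the 8 estimates kept their signs. With voom the log2 fold change of Ciita was 1.14, against 0.46. Ciita lay below the filter of 50. Without both WT 2 and KO 3 there were 4 called genes, all lower in KO, and all 8 class II estimates were positive, at 0.45 for Cd74, 0.60 for H2-Aa, 0.65 for H2-Ab1, 0.57 for H2-Eb1, 0.95 for Ciita, 0.23 for Ctss, 0.34 for Cst3 and 0.47 for H2-DMa. Of these, H2-DMa had a 95% interval above 0 (0.0426 to 0.905; limma unadjusted p = 0.0336, adjusted 0.998). Leaving out 1 library gave 0 called genes each time, and log2 fold changes of -0.41 to 0.27 for Cd74, -0.42 to 1.48 for Ciita, -0.070 to 0.30 for Cst3, -0.031 to 0.16 for Ctss, -0.26 to 0.67 for H2-Aa, -0.46 to 0.59 for H2-Ab1, -0.12 to 0.33 for H2-DMa and -0.49 to 0.36 for H2-Eb1. The causes were not tested. Deviations from the genotype means had r of 0.0081, -0.0357 and 0.0944 between same-numbered libraries, against -0.20 to 0.20 for the other KO and WT pairs. Taken from means of only 3 and 4 libraries, these values cannot decide whether same-numbered libraries share a host or a batch. With the replicate number as a block, which drops WT 4, 3 genes were called, all lower in KO, and the estimate for Cd74 was 0.028.

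For the correlations with Cd74, scaling to the total gave r = 0.811 for Ctss, 0.755 for the dendritic cell sum and -0.0957 for the stromal sum, and scaling to the upper quartile gave 0.815 for the dendritic cell sum; the 2 that had passed no longer did. For the mast cell sum r was 0.0219 and 0.0470 with pseudocounts of 5 and 10. Leaving out 1 library gave r of 0.641 to 0.948 for H2-Aa, 0.790 to 0.942 for H2-Ab1, 0.873 to 0.984 for H2-Eb1, 0.849 to 0.988 for H2-DMa, 0.774 to 0.982 for Ctss, 0.761 to 0.922 for Cst3 and -0.47 to 0.144 for Ciita. It gave 0.126 to 0.913 for the B cell sum, 0.867 to 0.962 for CD8 and NK cells, 0.683 to 0.893 for dendritic cells, 0.202 to 0.814 for macrophages, -0.86 to -0.56 for innate lymphoid cells, -0.66 to 0.541 for erythroid cells, -0.21 to 0.162 for mast cells, -0.74 to 0.0618 for neutrophils, -0.96 to 0.161 for plasma cells and -0.50 to 0.777 for stromal cells. No adjusted correlation of Cd74 with a class II gene survived leaving out WT 2 or WT 3. The correlations without both WT 2 and KO 3 were not run, since 5 libraries are too few. Depth limits Ciita most, with 2 reads in KO 3.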

Other observations

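Below the filter on low values, Fcgr1, which encodes the high-affinity IgG receptor of monocytes and macrophages, was chosen after its values had been seen. It had 9.87, 13.7 and 16.6 normalized counts in KO 1 to 3, against 0, 0, 0 and 0.703 in WT 1 to 4. Clec10a, a lectin gene of dendritic cells and macrophages that was picked in the same way, had 5.31, 0.808 and 16.6 in KO 1 to 3. It was at 0 in all 4 WT libraries. A single read is worth 0.808 in KO 2 and 1.84 in KO 3, so Clec10a in KO 2 rests on 1 read. Among genes that passed the filter, 1.71% had all KO libraries above all WT libraries, and the share below the filter was not counted. Neither gene followed the class II genes, since WT 2 had the highest class II levels and 0 for both.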
